A study of Mus musculus with 4 samples.

Results

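Cluster 1 of the CD4 T cells held 320 of the 1210 CD4 cells in the deposited per-cell table, which lists 3587 CD4 and CD8 cells in all. Its members were the CD4 cells to which the depositors gave cluster number 1. It held 0 of the 284 CD4 cells of the PT-Cy library, which allows a share of up to 1.06% by the limit of 3 counts and 1.29% by the exact 95% limit, and 320 of the 926 CD4 cells of the alloBMT library, a share of 34.6% (95% exact binomial interval 31.5% to 37.7%). The cells came from bone marrow of C57Bl/6 mice given marrow with CD4 and CD8 T cells of the C3H.SW strain, a donor matched to the recipient at the major histocompatibility complex. PT-Cy mice were also given cyclophosphamide, an alkylating drug that kills dividing cells, at 50 mg/kg on days 3 and 4, and alloBMT mice were not. On day 14 the marrow of 4 mice was pooled in each group, CD4 and CD8 T cells were sorted by flow cytometry, and RNA and open chromatin were read from the same nuclei with the 10x Multiome assay. Each group was thus 1 library, so no value below has a replicate check, and all intervals cover counting error only.

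CD4 T cells that meet antigen for a long time lose cytokine output and display inhibitory receptors such as PD-1, LAG-3 and TIM-3, a state called exhaustion. In this state the factor TOX is maintained, while TCF-1 marks the cells that can still renew themselves. After allogeneic transplantation the antigen is the recipient's own tissue and cannot be cleared. The 5 genes taken as markers of cluster 1, which were chosen with earlier results of these data known, include Gcg, which encodes proglucagon, the precursor of glucagon and of the incretin GLP-1, and Glp1r, the receptor of GLP-1.

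Depth and mitochondrial share differed between the clusters. The median cell of cluster 1 had 2902 RNA molecules (unique molecular identifiers, UMIs), against 2688 in the other alloBMT CD4 cells, and 8684 ATAC counts in peaks, against 5461. Cluster 3 stood apart, with a median of 2122.5 ATAC counts per cell and a deposited RNA weight of 17.1%, against 47.4% in cluster 1 and 45.1% in all other alloBMT CD4 cells together. Mitochondrial genes made 4.17% of the UMIs of the median cluster 1 cell and 3.38% of those of the median other cell. Summed over cells, cluster 1 had 1134181 UMIs and 3122398 ATAC counts, and the other 606 alloBMT CD4 cells had 1893786 UMIs and 3851964 ATAC counts. The libraries shared 2 cell barcodes, 0 of them in cluster 1. The deposited table gives each cell a weight for RNA and one for ATAC, as joint clustering on both assays does, so the RNA and ATAC values of these CD4 cells are described here and not tested.

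All 12 T cell markers listed for this work had UMIs in cluster 1, with a summed level of 8656 CPM (UMIs of a gene per 1000000 UMIs of the set), against 8340 CPM in the other cells. All 320 members, and all 606 other alloBMT CD4 cells, had at least 1 UMI of Cd4, and Cd8a had 0 UMIs in both sets. After thinning, Cd4 was seen in 82.3% and 79.8% of them. These counts are not used here as a check of the cells' identity. Of 21 islet and enteroendocrine markers other than Gcg, 17 were at 0 in cluster 1, among them Ins1, Ins2, Sst, Chgb and Pcsk2, and their summed level was 20.3 CPM, against 22.7 CPM in the other cells. Pcsk1, the convertase that releases GLP-1 from proglucagon, was also at 0. Of 7 natural killer markers, Ncr1 and Klra4 were at 0 and 5 had UMIs, with a summed level of 204 CPM in cluster 1 and 168 CPM in the other cells. The B cell genes Cd79a and Pax5 were at 0. Haemoglobin RNA, which T cells do not make, was found as Hbb-bs UMIs in 35.6% of cluster 1 cells and 26.9% of the others, and in 21.0% and 18.9% after each cell was thinned to 1971 UMIs.

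The 5 supplied markers were all higher in cluster 1, and each was seen in a minority of its cells. Promoter sequences are shown here for genes on which the description turns, since accessibility at them is given further on: Gcg and Glp1r as supplied markers, Havcr2 as an inhibitory receptor gene that was higher, and Il7r as a memory gene that was lower. Each is the RefSeq window of 250 bases before and 50 after the gene start (GRCm38.p6, gene strand, 5′ to 3′), and capitals mark matches on either strand to the TATA box (TATAAA), RUNX (TGTGGT), AP-1 (TGANTCA), TCF/LEF (CTTTGA), NR4A (AAGGTCA), T-box (GGTGTGA) or cyclic AMP response element (TGACGTCA) letters.
Gcg, chr2:62483604-62483903, minus strand: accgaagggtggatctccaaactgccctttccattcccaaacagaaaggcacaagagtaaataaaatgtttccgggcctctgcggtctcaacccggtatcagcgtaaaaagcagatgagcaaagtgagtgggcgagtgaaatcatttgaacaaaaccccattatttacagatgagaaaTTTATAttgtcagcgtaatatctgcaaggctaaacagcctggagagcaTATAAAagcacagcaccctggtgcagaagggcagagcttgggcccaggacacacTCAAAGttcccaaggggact
Glp1r, chr17:30901617-30901916, plus strand: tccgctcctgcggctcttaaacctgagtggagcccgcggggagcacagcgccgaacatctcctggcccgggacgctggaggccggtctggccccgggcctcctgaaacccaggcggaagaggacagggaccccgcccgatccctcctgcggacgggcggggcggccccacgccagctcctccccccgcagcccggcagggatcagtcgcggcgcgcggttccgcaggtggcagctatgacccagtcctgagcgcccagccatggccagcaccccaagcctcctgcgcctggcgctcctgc
Havcr2, chr11:46454681-46454980, plus strand: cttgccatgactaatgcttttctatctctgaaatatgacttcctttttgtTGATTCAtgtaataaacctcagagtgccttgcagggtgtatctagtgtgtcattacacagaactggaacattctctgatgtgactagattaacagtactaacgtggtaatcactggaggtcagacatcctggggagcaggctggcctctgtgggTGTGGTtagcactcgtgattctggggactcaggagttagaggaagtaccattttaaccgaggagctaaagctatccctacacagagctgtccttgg
Il7r, chr15:9529827-9530126, minus strand: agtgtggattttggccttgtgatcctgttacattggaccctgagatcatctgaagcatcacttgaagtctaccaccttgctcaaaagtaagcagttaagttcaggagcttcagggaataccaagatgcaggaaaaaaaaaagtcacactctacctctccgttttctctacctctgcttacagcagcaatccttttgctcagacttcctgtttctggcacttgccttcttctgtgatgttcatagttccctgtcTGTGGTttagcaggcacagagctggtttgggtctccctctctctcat

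The Gcg window held a TATA box at bases 227 to 232 on the gene strand, a second one on the other strand, and TCF/LEF letters on the other strand. Havcr2 had AP-1 letters at bases 51 to 57 and RUNX letters at bases 205 to 210, and Il7r had RUNX letters at bases 254 to 259. The Glp1r window had no match. Over all 32851 RefSeq promoter windows of this length, 13.6% held, on either strand, the TATA letters, 16.8% RUNX, 7.81% AP-1, 16.0% TCF/LEF, 4.72% NR4A, 3.98% T-box and 1.79% the cyclic AMP response element. The matches in these windows did not overlap one another.

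Gcg had 112 UMIs (98.7 CPM) in cluster 1, against 18 UMIs (9.50 CPM) in the other alloBMT CD4 cells. The log2 ratio was 3.38 (95% exact conditional interval 2.65 to 4.18). In single clusters its level was 7.92 CPM in cluster 0 (9 UMIs) and 13.6 CPM in cluster 3 (6 UMIs). Cluster 2 had 5.35 CPM (1 UMI) and cluster 4 had 15.5 CPM (2 UMIs), both below the limit of 3 UMIs (16.0 and 23.3 CPM). PT-Cy CD4 cells had 18.99 CPM of Gcg. The counts were concentrated: 26 of 320 cluster 1 cells (8.12%) held a Gcg UMI, against 7 of 606 other cells (1.16%), and the 3 cells with at least 10 UMIs held 64 of the 112. Without those 3 cells, a comparison chosen after the values were seen, 48 UMIs were left and the log2 ratio was 2.17 (1.36 to 3.03).

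Glp1r was spread more evenly, at 83.8 CPM in cluster 1 and 21.1 CPM in the other cells (log2 ratio 1.99, 1.44 to 2.56). It had a UMI in 20.9% of cluster 1 cells and 6.27% of the others, and its level in cluster 3 was 40.8 CPM. Zan, which encodes the sperm protein zonadhesin, had 101 CPM in cluster 1 and 26.4 CPM in the other cells (1.94, 1.45 to 2.45). Tmcc3, a gene for a membrane protein of the endoplasmic reticulum, had 85.5 CPM and 21.7 CPM in the same sets (1.98, 1.44 to 2.55). Rnf165, a ubiquitin ligase gene, had 62 UMIs in cluster 1 and 22 in the other cells (2.23, 1.51 to 3.01), so it was below the minimum of 100 UMIs used for counts of genes. Rnf165 was at 54.7 CPM in cluster 1, 10.6 CPM in cluster 0, 13.6 CPM in cluster 3 and 0 in cluster 2. In cluster 4 it was at 31.0 CPM (4 UMIs, 8.45 to 79.4).

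After thinning, the share of cells with a UMI remained higher in cluster 1 for each of the 5 markers, from 6.67% against 0.936% for Gcg to 14.3% against 3.37% for Zan. Without thinning, at least 1 of the 5 was found in 59.7% of the 320 cluster 1 cells and 17.99% of the 606 others. In cluster 1, 129 cells had a UMI of none of them, 107 of 1, 70 of 2, 13 of 3 and 1 of 4. In the same unthinned cells of cluster 1, Gcg and Glp1r were seen together in 1 cell, where 5.44 would hold both if they were independent. Gcg and Zan were seen together in 11 cells, where the same product is 6.91. Among thinned cluster 1 cells, the genes with the largest excess share in the 20 cells with Gcg over the 280 without it were Cox8a (80% against 40.4%), Rbm41 (50% against 12.1%), Rsrc1 (70% against 35.4%), Lclat1 and Rap1gds1. Cox8a encodes a subunit of cytochrome c oxidase. These 5 are the extremes of a ranking over many genes with only 20 Gcg cells, so gaps of this size can arise from the ranking itself. Whether they go with Gcg was not tested.

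**Figure D1:**
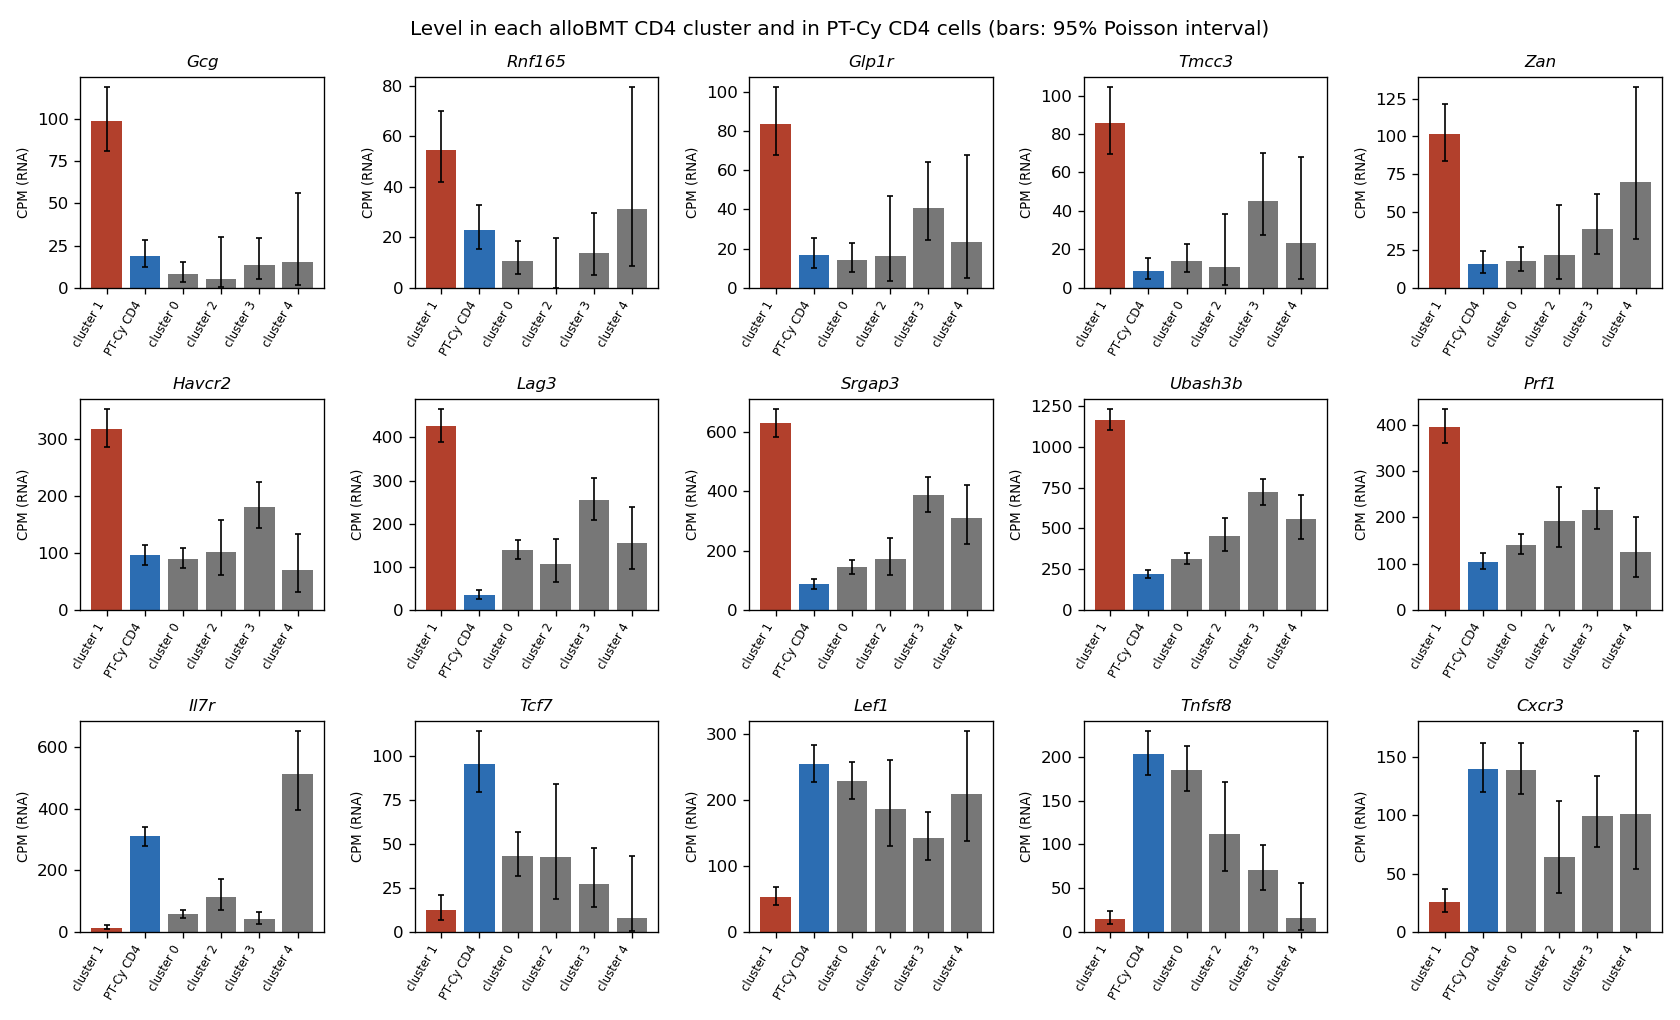
RNA level in CPM (vertical axes, each from 0) of the 5 supplied markers and 10 further genes in cluster 1, in PT-Cy CD4 cells and in the other alloBMT CD4 clusters; error bars are 95% Poisson intervals of the count. Gcg stood at 98.7 CPM in cluster 1 and at most 18.99 CPM in any other set shown, and Lag3 at 426 CPM in cluster 1 and 34.0 CPM in PT-Cy CD4 cells.

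Over the whole table, 50 of 5115 genes with at least 100 UMIs were at least 2-fold higher in cluster 1 (0.978%) and 92 were at least 2-fold lower (1.8%), and Gcg, Zan, Tmcc3 and Glp1r were among the higher ones. The genes nearest the threshold were Tacc2 (log2 ratio 1.003) inside it and Mir155hg (0.99) outside it. Set against single clusters, cluster 1 had 11 genes at least 2-fold higher and 13 lower against cluster 3, of 3301 with at least 100 UMIs, and 70 higher and 76 lower against cluster 0, of 4271. The level in cluster 3 lay between those of clusters 1 and 0 for all 50 higher genes and for 79 of the 92 lower ones. Over all 5115 genes it did so for 1895. The genes were called against a set that held clusters 0 and 3, so this place is partly set by the choice of genes.

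Havcr2 and Lag3, both inhibitory receptor genes, were among the leading higher genes, while Ctla4, the gene of another such receptor, was at 369 CPM in cluster 1 and 492 CPM in the other alloBMT CD4 cells (log2 ratio -0.42, -0.59 to -0.25). Ctla4 stood at 1303 CPM in cluster 4. Havcr2, which encodes TIM-3, had 318 CPM in cluster 1 and 111 CPM in the other alloBMT CD4 cells (log2 ratio 1.52, 1.27 to 1.77). Lag3, whose product binds MHC class II, had 426 CPM in cluster 1 and 164 CPM in the other cells (1.38, 1.17 to 1.59). Pdcd1, the gene of PD-1, had 306 CPM in cluster 1 and 174 CPM in the others (0.82, 0.59 to 1.04). Tox, the transcription factor gene tied to exhaustion, had 7544 CPM in cluster 1 and 4835 CPM in the others (0.64, 0.60 to 0.68), and was seen in every cluster 1 cell. In PT-Cy CD4 cells these genes were at 95.7 CPM for Havcr2, 34.0 CPM for Lag3, 72.0 CPM for Pdcd1 and 1943 CPM for Tox. Cluster 3 had 181 CPM of Havcr2, 254 CPM of Lag3, 233 CPM of Pdcd1 and 5926 CPM of Tox.

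Of the 25 genes on the exhaustion list, all measured, 8 were past 1.5-fold in the higher direction and 2 in the lower, and the median log2 ratio was 0.21. Over all 9281 genes with at least 20 UMIs, 7.82% were 1.5-fold or more above the other cells, 11.2% as far below, and the median was -0.02. Every RNA list count given further on is to be read beside these same shares. The other higher members were Cd244a (1.23), an inhibitory receptor of the SLAM family, Entpd1 (0.79), the ectoenzyme CD39, Nr4a2 (0.70), a nuclear receptor induced by receptor signalling, and Tox2 (0.59). The lower members were Nr4a3 (-1.35), of the same nuclear receptor family, and Irf4 (-0.96), a factor induced by receptor signalling. Tigit (0.42) and Cd160 (0.18, with an interval that spanned 0) did not pass 1.5-fold. The summed level of the list was 14391 CPM in cluster 1 and 10562 CPM in the other cells together. It was 15359 CPM in cluster 4, 11847 CPM in cluster 3 and 9671 CPM in cluster 0. Few genes ruled these sums: Tox had 7544 CPM in cluster 1 and 4326 CPM in cluster 4. Ikzf2 and Ctla4, also on the regulatory T cell list, had 6094 and 1303 CPM in cluster 4. The deposited per-cell score that the depositors named Tex averaged 0.0385 ± 0.0268 in cluster 1 and 7.87e-05 ± 0.0301 in the other cells (SD over cells of 1 library). Their score Tex_Acc averaged 0.0557 ± 0.0310 and 0.0268 ± 0.0374 in the same sets. The score Stem_Like differed less, at -0.0615 ± 0.0791 and -0.0398 ± 0.101, and 44.7% of cluster 1 cells were above the median of the others. Stem_Like_Acc averaged -0.00984 ± 0.0849 and 0.0196 ± 0.108.

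Several inhibitory receptor genes were detected in the same cell more often in cluster 1. Of 7 such genes (Pdcd1, Lag3, Havcr2, Tigit, Ctla4, Cd160 and Cd244a), at least 3 had a UMI in 41.0% of 300 thinned cluster 1 cells (35.4% to 46.8%), against 16.5% of 534 other thinned cells (13.4% to 19.9%). The share was 26.1% in cluster 3 and 13.03% in cluster 0. In PT-Cy CD4 cells it was 3.47%. Without thinning, Lag3 and Havcr2 occurred together in 128 of the 320 cluster 1 cells, where 120 would hold both if they were independent. Thinning left out 20 cells of cluster 1 and 72 of the other cells.

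**Figure D2:**
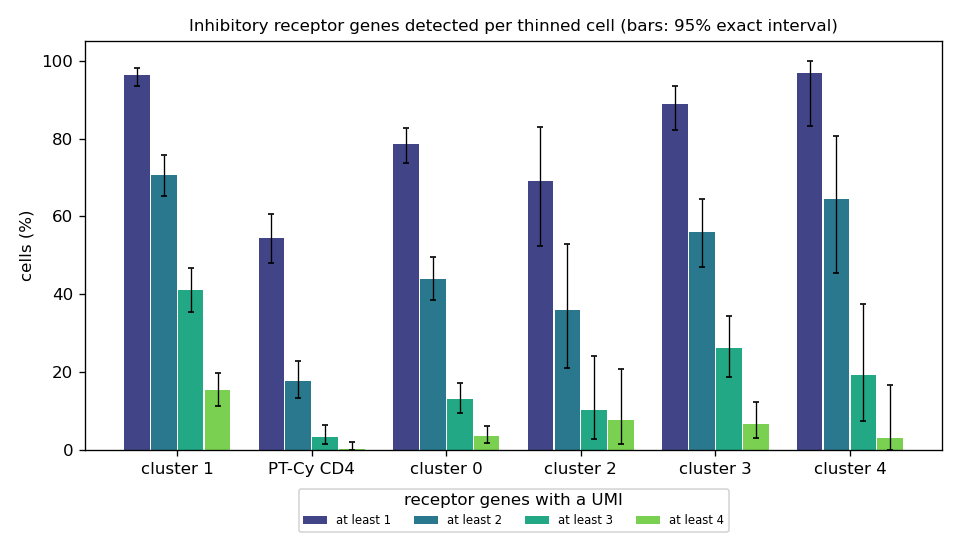
Share of cells (vertical axis, percent) with a UMI of at least 1, 2, 3 or 4 of 7 inhibitory receptor genes after thinning to 1971 UMIs, in cluster 1, in PT-Cy CD4 cells and in the other alloBMT CD4 clusters; error bars are 95% exact binomial intervals. At least 3 genes were seen in 41.0% of cluster 1 cells and 3.47% of PT-Cy CD4 cells.

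Prf1, which encodes the pore-forming perforin, had 396 CPM in cluster 1 and 162 CPM in the other cells (log2 ratio 1.29, 1.08 to 1.502). Klrk1, the activating receptor NKG2D, had 176 CPM in cluster 1 and 59.7 CPM in the others (1.56, 1.22 to 1.91). Klrc1, which encodes the inhibitory receptor NKG2A, had 106 CPM and 37.0 CPM in the same sets (1.52, 1.08 to 1.96). Granzyme genes differed among themselves. Gzmb was at 281 CPM in cluster 1 and 191 CPM in the others (0.56, 0.34 to 0.78), and Gzmk at 154 CPM and 196 CPM (-0.35, -0.62 to -0.09). Cluster 4 had 364 CPM of Gzmb and PT-Cy CD4 cells 459 CPM, both above cluster 1. Clusters 0, 2 and 3 had 161, 171 and 227 CPM of it. The effector list had 21 measured genes, of which 33.3% were higher and 14.3% lower, against 7.82% and 11.2% of all genes. Past 1.5-fold, 7 were higher, among them the chemokine genes Ccl3 (0.71) and Ccl4 (0.69), and 3 were lower, the cytokine genes Tnf (3 and 20 UMIs, -1.997, -4.39 to -0.24) and Xcl1 (2 and 20 UMIs, -2.58, -5.72 to -0.54) and the receptor gene Klrg1 (-0.71, with an interval that spanned 0). Ifng, the defining Th1 cytokine, was at 229 CPM in cluster 1 and 207 CPM in the others, and its interval spanned 0 (0.15, -0.08 to 0.38).

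Of 12 genes usually read as CD8 T cell or natural killer genes, 8 were measured, and 6 of those were higher past 1.5-fold and 0 lower (median 0.99). They included Klrc2 (1.26), Klrd1 (1.11) and Runx3 (0.87), the factor that silences Cd4 in CD8 cells. In cluster 1 and cluster 3, Klrc2 was at 98.7 and 92.9 CPM and Klrd1 at 175 and 122 CPM. Runx3 was at 579 and 401 CPM in those clusters, and Klrk1 at 176 and 134 CPM. Cd4 itself had 705 CPM in cluster 1 and 616 CPM in the others (0.20, 0.06 to 0.33), and Cd8b1 had 121 CPM and 87.7 CPM (0.46, 0.13 to 0.80). Open chromatin at Cd8a and Cd8b1 was 23.1 CPM (here per 1000000 ATAC counts in peaks) in cluster 1 (18.04 to 29.0), against 16.6 in the other alloBMT CD4 cells (12.8 to 21.2). It was 26.3 in cluster 3 (12.0 to 49.9) and 30.5 in PT-Cy CD4 cells (22.4 to 40.6), whose Cd8b1 RNA was at 122 CPM and 131 CPM. AlloBMT CD8 cells had 91.4 there. At Cd4 the values were 95.4 in cluster 1, 91.9 in the other CD4 cells and 44.7 in alloBMT CD8 cells. The part that CD8 cells carried into the CD4 set could have in these values was not tested.

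Ubash3b, the phosphatase Sts-1 that dampens receptor signalling, had 1166 CPM in cluster 1 and 438 CPM in the other cells (1.41, 1.29 to 1.54), and Cblb, a ubiquitin ligase that restrains activation, had a log2 ratio of 0.86 (0.79 to 0.93). On the list of receptor and proximal signalling genes, these were the 2 higher of 26 (7.69%, against 7.82% of all genes), and Lat (-0.67) and Dgka (-0.60) were the 2 lower. Srgap3, a regulator of Rac, had 630 CPM in cluster 1 and 214 CPM in the others (1.55, 1.38 to 1.73), with a UMI in 75.9% of cluster 1 cells against 28.9%. In cluster 3 Srgap3 was at 387 CPM and Ubash3b at 720 CPM. Slc16a10, a transporter of aromatic amino acids, had a log2 ratio of 1.83 (1.43 to 2.24), and Cd55, a complement regulator, 1.73 (1.36 to 2.12). Tnfrsf9, the costimulatory receptor 4-1BB, had 312 CPM in cluster 1 and 130 CPM in the others (1.26, 1.03 to 1.51), and within the others it was highest in cluster 4, at 504 CPM. Setbp1, Spp1, Ank3, Chn2, Prr5l, Itih5, Adamts6, Filip1, Gpd2, Tcrg-C2 and Dgkg completed the leading genes, with log2 ratios between 1.17 for Adamts6 and 1.76 for Spp1. Tcrg-C2 and the Klrc genes have close copies that can share reads, so their values are uncertain.

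**Figure D3:**
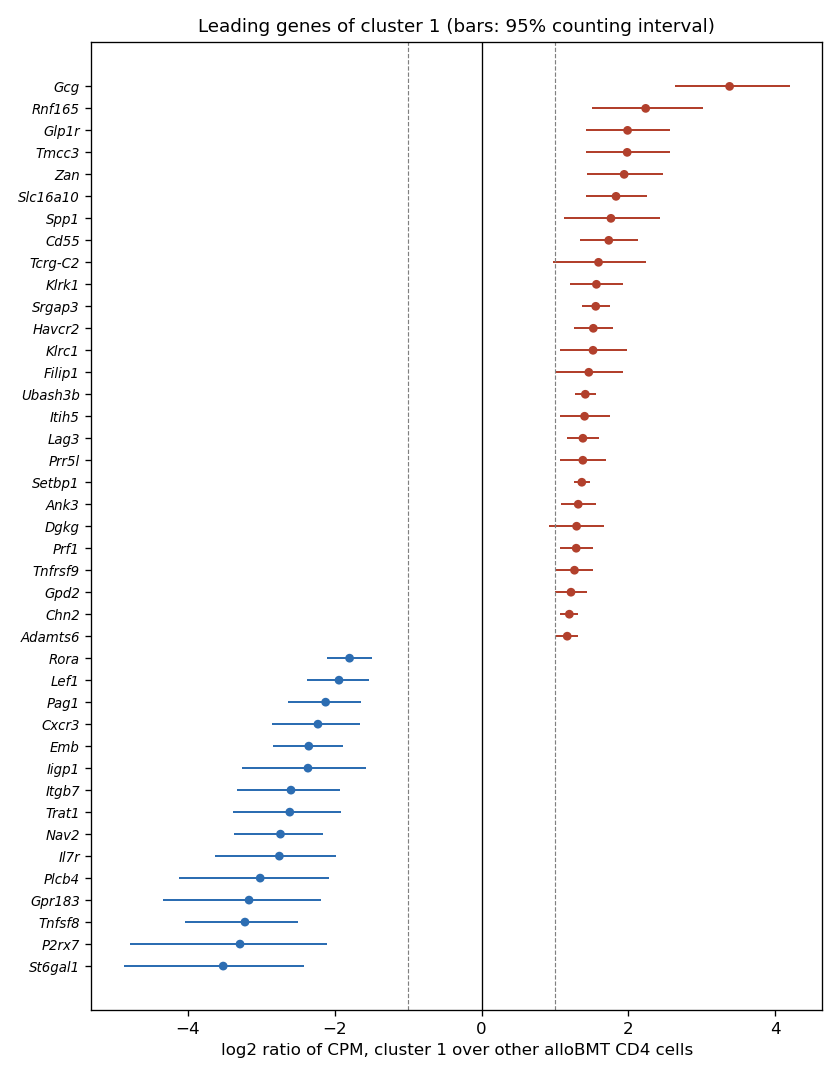
Log2 ratio of CPM, cluster 1 over the other alloBMT CD4 cells (horizontal axis), for the 25 leading higher genes with Rnf165 (red) and the 15 leading lower genes (blue); bars are 95% counting intervals and dashed lines mark 2-fold. Gcg lies highest at 3.38 and St6gal1 lowest at -3.52.

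The lower genes included those of memory and renewal. Il7r, the receptor chain for the survival cytokine interleukin-7, had 13.2 CPM in cluster 1 and 89.2 CPM in the other cells (log2 ratio -2.75, -3.62 to -1.99). Its level was 56.3 CPM in cluster 0, 112 CPM in cluster 2, 40.8 CPM in cluster 3 and 512 CPM in cluster 4. PT-Cy CD4 cells had 309 CPM. Lef1, a partner of TCF-1, had 52.9 CPM in cluster 1 and 203 CPM in the others (-1.94, -2.36 to -1.55), and Tcf7, the gene of TCF-1, had 14 UMIs and 70 UMIs (-1.58, -2.53 to -0.74). The stem-like and memory list had 20 measured genes, of which 10 were lower past 1.5-fold and 0 higher (median -0.57). Slamf6 (-1.38), a surface marker of stem-like exhausted cells, and Satb1 (-1.32), a chromatin organiser, were among them.

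Trafficking genes were lower too, 11 of 20 measured against 0 higher, with a median of -0.77. Cxcr3, the receptor for interferon-induced chemokines, had 25.6 CPM in cluster 1 and 120 CPM in the others (-2.23, -2.84 to -1.67). Itgb7, a chain of the gut-homing integrin, had 18.5 CPM and 112 CPM (-2.60, -3.32 to -1.95). S1pr1, which guides exit from tissue, had 5 UMIs in cluster 1 and 51 in the others (-2.61, -4.29 to -1.29). Gpr183, an oxysterol receptor that positions cells in lymphoid tissue, had a log2 ratio of -3.17 (-4.33 to -2.20).

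Costimulation and TNF family genes had the lowest median among lists with at least 8 measured members, -0.88, with 11 of 18 measured members lower and 2 higher. Tnfsf8, the CD30 ligand, had 14.99 CPM in cluster 1 and 140 CPM in the others (-3.22, -4.02 to -2.52). Tnfsf11, the ligand RANKL, had 0 UMIs in cluster 1 and 30 in the others, and with 3 UMIs put in place of the 0 its log2 ratio was -2.58. The upper end of its interval, made with the 0, was -2.19. Cd226 (-1.55), Cd40lg (-1.34) and Icos (-1.09), which give activating or helper signals, were also lower. The higher members were Tnfrsf9 and Crtam (1.04).

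Interferon-induced genes were lower in 10 of 19 measured members and higher in 0, with a median of -0.78, among them Rsad2 (1 and 20 UMIs, -3.58, -8.96 to -0.94) and Irf9 (-0.78). Interleukin-18 receptor genes followed, Il18rap at -2.09 and Il18r1 at -1.95, and Rora, a nuclear receptor gene, at -1.80 (-2.10 to -1.51). St6gal1 (-3.52), a sialyltransferase gene, P2rx7 (-3.29), the receptor of extracellular ATP, Plcb4 (-3.02), Nav2 (-2.74), Trat1 (-2.61), Emb (-2.35), Iigp1 (-2.36) and Pag1 (-2.12) completed the leading lower genes.

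The list of cytokine receptors had 8 of 21 measured members lower and 1 higher, Il6st (0.60), which encodes the shared signal chain of the interleukin-6 family. Il2ra, the high-affinity chain of the interleukin-2 receptor, had 1 UMI in cluster 1 and 69 in the other cells (log2 ratio -5.37, -10.7 to -2.84). Cluster 4 held 60 of those 69 UMIs, cluster 0 held 3 and cluster 3 held 0. On the list of type 1 regulatory cells, which make interleukin-10 without Foxp3, 4 of 14 were higher and 2 lower. That was 28.6% and 14.3%, against 7.82% and 11.2% of all genes. Il10 itself had 89.1 CPM in cluster 1 and 57.6 CPM in the others (0.63, 0.22 to 1.03). Within the others it was at 45.8 CPM in cluster 0, 74.8 in cluster 2, 72.5 in cluster 3 and 85.3 in cluster 4 (11 UMIs). The summed level of the list was 3514 CPM in cluster 1, 3034 CPM in the others together and 4427 CPM in cluster 4. Among follicular helper genes 4 of 13 were higher and 6 lower, and Il21 had 29 and 31 UMIs (0.64, -0.14 to 1.42).

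Gcg and Glp1r were the 2 higher genes among the 4 measured of 18 listed for proglucagon, its processing and the incretin receptors. Both are supplied markers, and Gcg was measured mainly through its 112 UMIs in cluster 1. Their place on this list was thus set by their choice and is no separate result. The GLP-1 receptor signals through cyclic AMP. Of 19 measured cyclic AMP signalling genes 1 was higher (5.26%, against 7.82% of all genes), the phosphodiesterase gene Pde4a (0.93, with an interval that spanned 0). The 2 lower members made 10.5%, against 11.2% of all genes, and the median was 0.02. Dpp4, a neighbour of Gcg whose product cleaves GLP-1, had a log2 ratio of 0.35 (0.15 to 0.55).

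Regulatory T cell genes were lower in 7 of 13 measured members and higher in 2, Tnfrsf9 and Ikzf4 (1.13), yet their summed level was 1494 CPM in cluster 1, 1147 CPM in cluster 0 and 10389 CPM in cluster 4. Foxp3, the defining factor, had 5.29 CPM in cluster 1 and 240 CPM in cluster 4. Cell division genes were lower in 13 of 27 members, with a median of -0.56 and a sum of 1208 CPM in cluster 1, 1268 CPM in cluster 0 and 6559 CPM in cluster 2. Without cluster 2 the median was -0.03, and Kif15, Kif11 and Cenpf, motor and kinetochore genes of mitosis, had log2 ratios of 0.13, 0.13 and 0.34, against -1.12, -0.76 and -0.62 with it.

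**Figure D4:**
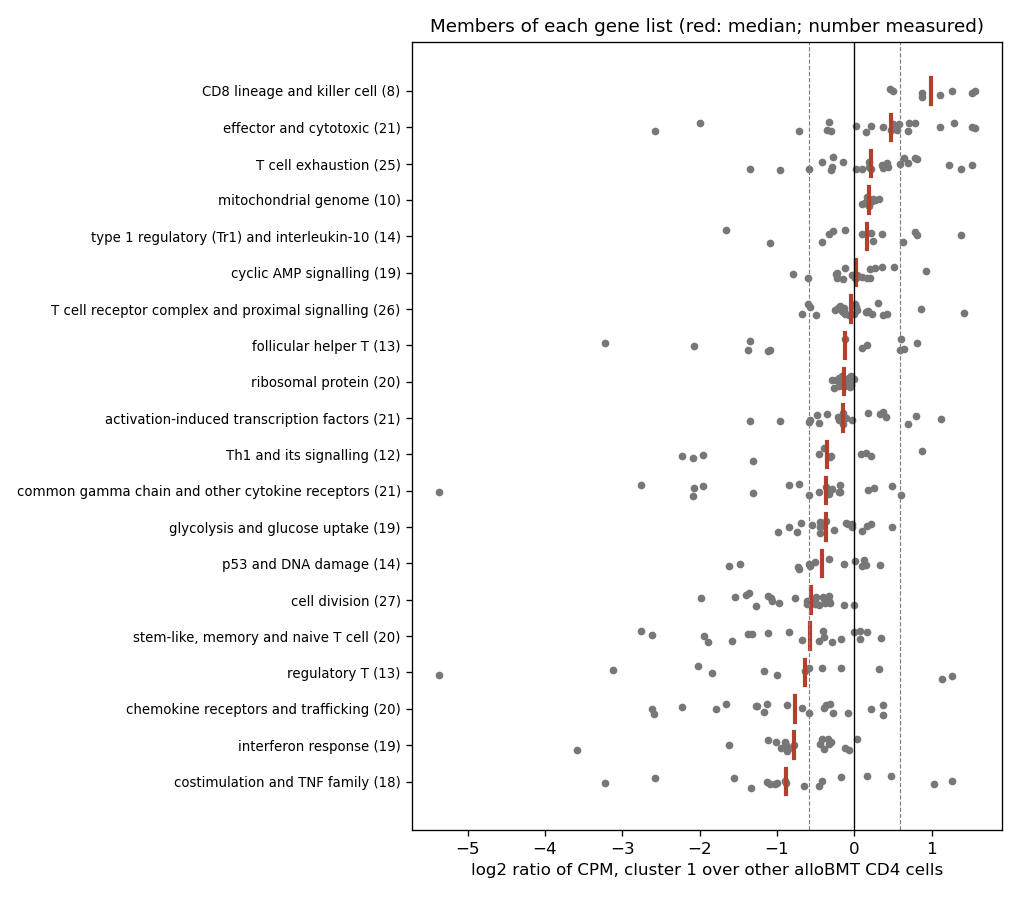
Log2 ratio of CPM, cluster 1 over the other alloBMT CD4 cells (horizontal axis), for each measured member (grey points) of the gene lists with at least 8 measured members, with the list's median in red and dashed lines at 1.5-fold. Medians run from -0.88 for costimulation and TNF family genes to 0.99 for CD8 lineage and killer cell genes.

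Receptor chain use was read from few UMIs. Trav3-3 made 36 of 81 Trav UMIs in cluster 1 (44.4%, 33.4% to 55.9%), found in 33 cells, against 12 of 70 in cluster 0 (17.1%, 9.18% to 28.0%) and 12 of 38 in cluster 3 (31.6%, 17.5% to 48.7%). Trbv2 made 15 of 57 Trbv UMIs in cluster 1 (26.3%) and 17 of 71 in cluster 0 (23.9%). Near-identical segments can share reads, so these shares are uncertain.

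Open chromatin followed the RNA in part. A minimum of 100 counts was met by 17501 peaks. At 2-fold, 197 of them were higher in cluster 1 (1.13%) and 119 lower (0.68%). When each cell was counted once per peak, 98 were higher and 53 lower. Of the higher peaks 13.2% lay within 2 kb of a gene end, against 57.2% of all these peaks, and 23.5% of the lower ones did. Among the 50 higher genes, 41 had at least 100 ATAC counts within 2 kb of the gene, and accessibility was above that of the other cells in 39 of them. Among the 92 lower genes it was below in 72 of 84. Over all 4892 such genes 51.4% were below. Across those genes the Pearson correlation of the RNA and ATAC log2 ratios was 0.40, a description over genes that share the same cells.

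The peak whose interval had the highest lower bound lay in Glis1 at chromosome 4, 107601897 to 107603109, in the coordinates of the deposited peaks. It had 122 counts in cluster 1 and 20 in the other cells (log2 ratio 2.91, 2.22 to 3.67), and 39.1 CPM in cluster 1, against 51.3 in alloBMT CD8 cells and 6.50 in PT-Cy CD4 cells. A peak 3.05 kb from Irf8, a factor gene of interferon and receptor signalling (chromosome 8, 120759739 to 120761580), had 143 and 46 counts (1.94, 1.45 to 2.45). The others lay in Cenpu, Tmem135, Plekha5, Gtf2i and Rasa3 and 11.7 kb from Chst1, with log2 ratios of 1.92 to 2.33. The peak whose interval had the lowest upper bound lay 4.03 kb from Emb (chromosome 13, 117215713 to 117216539), with 21 and 121 counts (-2.22, -2.97 to -1.55), and another lay in Plcb4 (-1.94). RNA of both genes was lower in cluster 1.

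At Glp1r, a peak within the gene at chromosome 17, 30907242 to 30907940, had 85 counts in cluster 1 and 27 in the other CD4 cells (1.96, 1.32 to 2.64). Its level was 27.2 CPM in cluster 1, 7.01 in the other CD4 cells and 30.3 in alloBMT CD8 cells. The peak over the Glp1r promoter window had 109 and 82 counts (0.71, 0.29 to 1.15). At Gcg the peak over the promoter window had 7 counts in cluster 1 and 1 in the other cells, with 3 counts in the larger alloBMT CD8 set and 0 in PT-Cy CD4 cells. Its log2 ratio of 3.11 had an interval of 0.15 to 8.60. The peak over the Havcr2 window had 63 and 63 counts (0.30, -0.22 to 0.83), and the one over the Il7r window 11 in cluster 1 and 31 in the other cells (-1.19, -2.33 to -0.16). Over the whole Havcr2 gene with 2 kb on each side the log2 ratio was 0.37 (0.13 to 0.60), at Prf1 0.84 (0.58 to 1.09), at Il7r -1.12 (-1.76 to -0.51) and at Tcf7 -0.62 (-0.82 to -0.42). At Tox it was -0.05 (-0.15 to 0.05). The exhaustion list had 0 of 25 genes past 1.5-fold in accessibility, with 4.09% of all 15207 genes higher and 3.93% lower, while the stem-like list had 5 of 22 lower.

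The called peaks were then read in CD8 cells, which the depositors clustered apart from the CD4 cells, and in PT-Cy CD4 cells, which were clustered with them but are in neither side of the ratio. The 197 higher peaks had a median of 28.8 CPM in cluster 1, and in the other alloBMT CD4 clusters medians ran from 10.3 in cluster 0 to 17.5 in cluster 3. PT-Cy CD8 cells had 16.0 and PT-Cy CD4 cells 9.75, while alloBMT CD8 cells had 24.4, with 15.1 to 31.9 in their clusters and the highest value in CD8 cluster 3. Within the PT-Cy library, 182 of the 197 peaks were higher in CD8 than in CD4 cells, where 52.8% of all peaks were. AlloBMT CD8 cells were above PT-Cy CD4 cells in 193 of the 197, against 52.9% of all peaks. Between the CD8 cells of the libraries, 17 of the 197 were higher in PT-Cy and 180 in alloBMT, where 48.0% and 52.0% of all peaks were. These 3 readings share cell sets and are given side by side.

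The 119 lower peaks had a median of 10.9 in cluster 1 and 25.4 in the other alloBMT CD4 cells. It was 26.0 in PT-Cy CD4 cells, 19.9 in PT-Cy CD8 cells and 13.7 in alloBMT CD8 cells. CD8 cells of the PT-Cy library were below its CD4 cells in 96 of the 119, where 47.2% of all peaks were, and alloBMT CD8 cells were below PT-Cy CD4 cells in 88.2% of them, against 47.1% of all peaks. Between the CD8 cells, 110 of the 119 were higher in PT-Cy and 9 in alloBMT, where 48.0% and 52.0% of all peaks were. Medians over all 17501 peaks ran from 30.9 to 35.1 in every set. The CD8 cells were sorted in the same pools and share the libraries with the CD4 cells.

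**Figure D5:**
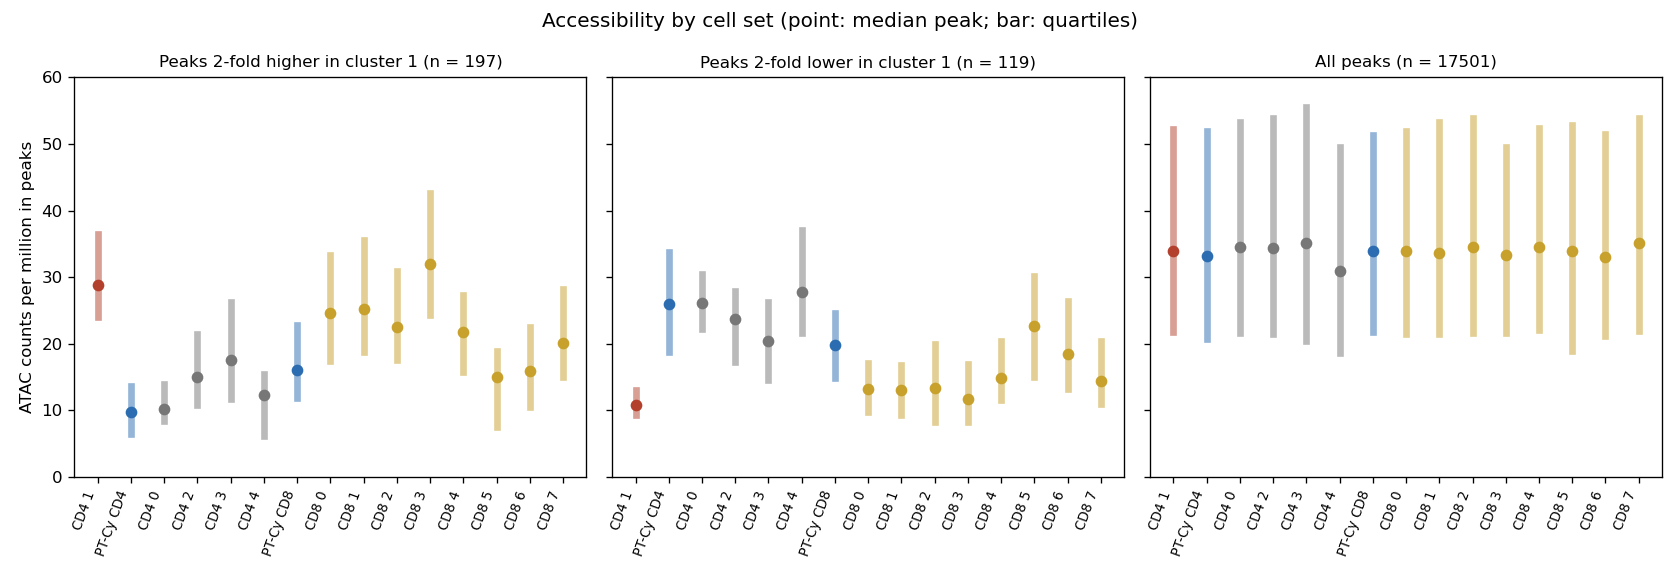
ATAC CPM in peaks (vertical axis, from 0) for the 197 peaks at least 2-fold higher in cluster 1, the 119 lower and all 17501 peaks, by cell set; points are the median peak and bars the quartiles, in red for cluster 1, blue for PT-Cy cells, grey for other alloBMT CD4 clusters and yellow for alloBMT CD8 clusters. In the first panel cluster 1 stands at 28.8, PT-Cy CD4 cells at 9.75 and alloBMT CD8 cluster 3 at 31.9.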

How the data were processed

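Raw counts of UMIs per gene and of ATAC counts per peak were deposited by the authors, each for 1 alloBMT and 1 PT-Cy library. The submitters' processing notes name Cell Ranger ARC 1.0.1, MACS2 and the build GRCh38. The genes are those of mouse, and 51.4% of 32815 RefSeq promoter windows (GRCm38.p6) overlapped a deposited peak, against 8.48% to 9.10% after shifts, so gene places were read on that mouse build. Per-cell cluster numbers, module scores, percent mitochondrial UMIs, the fraction in peaks and the TSS enrichment ratio are the authors' deposited values. Of the 58 columns in the per-cell table, 36 were not used. No cell was filtered and no doublet caller was run.

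Counts were summed over cells and given as CPM, counts per 1000000. Ratios carry exact conditional intervals at 95%, made with scipy 1.17.1 (Python 3.11.15). R packages edgeR 4.0.16 and DESeq2 1.42.0 gave alternative scaling factors only. With 1 library per group no test was run. A gene or peak was called at 2-fold with at least 100 counts. List members needed 20 counts and 1.5-fold, and 3 counts stood in for a 0. Named genes were the 25 highest by lower bound, the 15 lowest by upper bound, the supplied markers, up to 4 per list and a fixed set. S1pr1, Satb1, Crtam, Tnfsf11, Rsad2, Tnf, Xcl1, Klrg1, Ccl3, Ccl4, Entpd1, Irf4, Il2ra, Il6st, Ikzf4, Gzmb, Gzmk, Tigit, Cd160, Pde4a and Tacc2 are further genes named after their values were seen. Members and lists were chosen with earlier results of these data known.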

Additional observations from a re-analysis of the deposited data

How the results depend on the processing

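No paired analysis was possible because each group was 1 library. The counts of 50 higher and 92 lower genes stayed within 1.5 times under TMM and DESeq2 scaling, mean per-cell CPM, thinning, equal cluster weights and the removal of deep cells or of cluster 2 or, added after seeing the data, of cluster 3 or of all but cluster 0, with 40 to 70 higher and 76 to 128 lower genes. They were 203 and 437 with a minimum of 20 UMIs, and 850 and 1018 with none. The genes called were not all the same. With the other 4 clusters at equal weight, 36 of the 50 higher and 81 of the 92 lower genes were still past 2-fold. Against cluster 0 alone, all 50 and 81 of the 92 were, and 89 of the 92 kept their sign. The counts of 197 higher and 119 lower peaks were 2834 and 2646 with a minimum of 20 counts, and 98 and 53 when each cell counted once per peak. Lower minimums admit features whose ratios have wide counting intervals, and for single counting per cell the cause was not tested. With the other 4 clusters at equal weight, list medians moved to -1.20 for cell division, -0.33 for Th17, -0.67 for follicular helper and -1.68 for regulatory T genes. With members of at least 100 UMIs they were 1.99 for the proglucagon list and 1.59 for the gamma delta list, which kept few members. Without cluster 2, Kif15, Kif11 and Cenpf reversed to 0.13, 0.13 and 0.34. The difference in the share of cells with a UMI turned to 0.22 points for Ifih1 without thinning and to 0.53 points for Aldoa with thinning to 2310 UMIs, both being below 0 with thinning to 1971 UMIs.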
